A study of Mus musculus with 8 samples.

Results

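The cytotoxic effectors examined here are 10 genes of killer lymphocytes, namely the granzymes Gzma, Gzmb, Gzmk and Gzmm, perforin (Prf1), the granule membrane protein gene Nkg7, the cytokine gene Ifng, the death ligand genes Fasl and Tnfsf10, and the chemokine gene Xcl1. They were taken by symbol from the 52459 genes of the bulk count table and the 31053 genes of the single-cell matrices, and all 10 were found in both. FC1242 cells, a mouse pancreatic cancer line of the KPC model, had been injected into C57BL/6 mice at 100000 cells, and tumors were taken after 3 weeks. Liver metastatic tumors were compared with primary pancreatic tumors, which were grown from the same cells, so that site was the difference named by the labels. Bulk RNA sequencing gave 3 liver and 3 primary libraries, which are called liver tumors and primary tumors below. Sorted CD45+ cells gave 1 single-cell library for liver tumors and 1 for primary tumors. The labels name a single tumor line and do not give the age of the mice or the number of animals behind a single-cell library. Nothing in them says that the bulk replicates were separate tumors or animals. The p-values therefore measure the spread between these samples, which may be technical.

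Killer lymphocytes, chiefly CD8 T cells and natural killer (NK) cells, kill by releasing granules in which perforin opens the target's membrane and granzymes, serine proteases, enter and start cell death. The same cells carry Fas ligand and TRAIL, the products of Fasl and Tnfsf10, which engage death receptors on the target. They also secrete interferon gamma, the product of Ifng, which acts on tumor cells and macrophages, and the chemokine product of Xcl1, which attracts cross-presenting dendritic cells.

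The effector transcripts did not move as a block between the sites. In bulk tumors, Tnfsf10 was the 1 member that passed the test, at 6.02 ± 0.76 CPM (counts per 1000000 reads of the library) in liver tumors and 2.52 ± 0.13 in primary tumors (SD, n = 3 each). Gzma was higher in every liver tumor than in every primary tumor but did not pass. In the single-cell libraries, Gzma in T or NK-like cells stood at 1319 CPM (here per 1000000 UMIs, the unique molecular identifiers that each mark a captured RNA molecule) in the liver library and 113 in the primary library, while Gzmb, Prf1, Ifng and Xcl1 had lower levels in the liver library. These differences were smaller when the 5 cells per library with most UMIs of the gene were left out. Those cells were picked by the gene's own UMIs, so the cut says only that few cells held many of them. The single-cell comparison has 1 library per site and therefore no test.

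The genes lie on chromosomes 1, 3, 7, 10, 13 and 14 of the mouse genome (RefSeq positions, build GRCm38.p6). Gzma at chr13:113093824-113100981 and Gzmk at chr13:113171630-113180965 are close neighbours on the same strand, and Gzmb lies at chr14:56258836-56262334. Prf1 lies at chr10:61297751-61304684, Gzmm at chr10:79689020-79695261 and Ifng at chr10:118441046-118445894. Nkg7 lies at chr7:43437138-43438246, Fasl at chr1:161780691-161788495, Xcl1 at chr1:164931644-164935522 and Tnfsf10 at chr3:27317077-27339665. All 10 matched a RefSeq promoter window, which runs from 250 bases before to 50 bases after the gene's start. The windows of Gzma and its neighbour Gzmk are shown because these neighbours had the largest bulk changes among the granzymes, in opposite directions, that of Gzmb as the granzyme usually taken to mark effector cells, and that of Tnfsf10 as the member called in bulk. Capitals mark matches, on either strand, to 6 short motifs: the Runx motif TGTGGT, the T-box motif TCACACC, the AP-1 motif TGANTCA, the interferon regulatory factor motif GAAANNGAA, the STAT motif TTCNNNGAA and the TATA box TATAAA.
Gzma, chr13:113100932-113101231, minus strand: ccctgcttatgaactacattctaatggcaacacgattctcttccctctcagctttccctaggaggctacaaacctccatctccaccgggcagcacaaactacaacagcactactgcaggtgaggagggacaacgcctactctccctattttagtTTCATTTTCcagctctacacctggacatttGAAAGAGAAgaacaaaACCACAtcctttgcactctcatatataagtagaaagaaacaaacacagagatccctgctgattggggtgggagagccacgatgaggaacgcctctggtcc
Gzmk, chr13:113180916-113181215, minus strand: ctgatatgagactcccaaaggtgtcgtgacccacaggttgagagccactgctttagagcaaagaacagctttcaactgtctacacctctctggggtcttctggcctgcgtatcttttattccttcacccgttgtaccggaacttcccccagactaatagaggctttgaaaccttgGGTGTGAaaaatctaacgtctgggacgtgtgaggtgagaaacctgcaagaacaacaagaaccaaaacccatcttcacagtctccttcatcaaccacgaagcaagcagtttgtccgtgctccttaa
Gzmb, chr14:56262285-56262584, minus strand: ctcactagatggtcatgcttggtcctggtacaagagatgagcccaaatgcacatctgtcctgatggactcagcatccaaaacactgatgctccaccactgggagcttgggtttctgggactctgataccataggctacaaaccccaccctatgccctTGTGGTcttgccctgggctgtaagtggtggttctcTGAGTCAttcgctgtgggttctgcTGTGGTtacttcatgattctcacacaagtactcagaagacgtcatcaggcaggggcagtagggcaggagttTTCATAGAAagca
Tnfsf10, chr3:27316827-27317126, plus strand: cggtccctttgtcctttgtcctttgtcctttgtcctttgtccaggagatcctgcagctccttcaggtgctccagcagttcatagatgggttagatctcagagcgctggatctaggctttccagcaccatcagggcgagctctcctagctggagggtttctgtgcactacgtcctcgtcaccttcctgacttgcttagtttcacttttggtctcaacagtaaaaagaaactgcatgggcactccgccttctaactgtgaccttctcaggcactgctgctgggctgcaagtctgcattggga

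The Gzma window held GAAANNGAA at 2 places, 96 and 66 bases before the start, and TGTGGT 50 bases before it. The neighbouring Gzmk window held neither and had a single TCACACC. The Gzmb window held TGTGGT at 2 places, 1 TGANTCA and 1 TTCNNNGAA. The Tnfsf10 window held none of the 6 letter strings, which says only that these letters are not in this stretch. Among all 32851 windows of the same length, 16.8% held TGTGGT, 8.56% held GAAANNGAA, 8.3% TTCNNNGAA, 7.81% TGANTCA, 13.6% TATAAA and 3.98% TCACACC, so that single matches are frequent. Of the members, TCACACC was found in Gzmk, Nkg7, Xcl1 and a second Gzmm window, and no match overlapped another in any of these windows. These are descriptions of sequence and not of binding.

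Bulk libraries held between 27481390 and 36743247 counted reads, and the effectors took only 340 to 472 of them per library, so that each rests on few reads. Bulk levels are CPM scaled with TMM (trimmed mean of M values) library factors, and a call is an edgeR quasi-likelihood test with a Benjamini-Hochberg adjusted p under 0.05 over the 16487 genes tested. Of these genes 16.7% were called higher in liver tumors, 6.26% lower and 23% in either direction. All 10 effectors passed the filter on low counts. An unadjusted edgeR p under 0.05 was found for 2 of them and for 6051 of the 16487 genes tested. Among the effectors 1 was called higher and 0 lower. A share of 1 in 10 is no larger than the background. All genes tested had a median log2 change of -0.07, and the members one of 0.42. In bulk tissue fewer cells of a type and less RNA per cell cannot be told apart.

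Among the granzymes, Gzma, a tryptase of T and NK cells, stood at 2.20, 1.06 and 1.16 CPM in liver tumors, against 0.123, 0.277 and 0.870 in primary tumors. All 3 liver tumors were above all 3 primary tumors, and the third primary tumor came close to the liver range. The log2 change was 1.77 ± 0.68 (SE; edgeR adjusted p = 0.10). Without the third primary tumor it was 2.89 with an edgeR adjusted p of 0.020, and DESeq2 (adjusted p = 0.047) and limma on FPKM with a pseudocount of 1 (adjusted p = 0.047) called it higher with no tumor left out, so that the call depended on the tool and on 1 library.

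Gzmb, the granzyme with aspartate-directed activity that cuts caspases, had 1.14, 0.72 and 0.62 CPM in liver tumors, against 1.01, 0.52 and 2.01 in primary tumors. The groups overlapped, and the third primary tumor was the highest of the 6. Its log2 change was -0.53 ± 0.54 (SE; edgeR adjusted p = 0.52). Gzmk, a tryptase often seen in memory-type CD8 T cells, had 0.57, 0.20 and 0.30 CPM in liver tumors, against 0.93, 1.11 and 0.17 in primary tumors. The first and second primary tumors were above all liver tumors and the third was below them, with a log2 change of -1.05 ± 0.71 (SE; edgeR adjusted p = 0.32). Gzmm, a granzyme of innate-type killer cells, had 0.26, 0.48 and 0.33 CPM in liver tumors, against 0.49, 0.55 and 0.60 in primary tumors. All liver values lay below all primary values, by a margin smaller than the spread among the liver tumors, and the change of -0.60 ± 0.40 (SE, log2) did not pass (edgeR adjusted p = 0.32). Over all genes tested, 23.8% had every liver tumor above every primary tumor and 20.2% every liver tumor below, against 2 effectors (Gzma and Tnfsf10) and 1 effector (Gzmm).

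**Figure D1:**
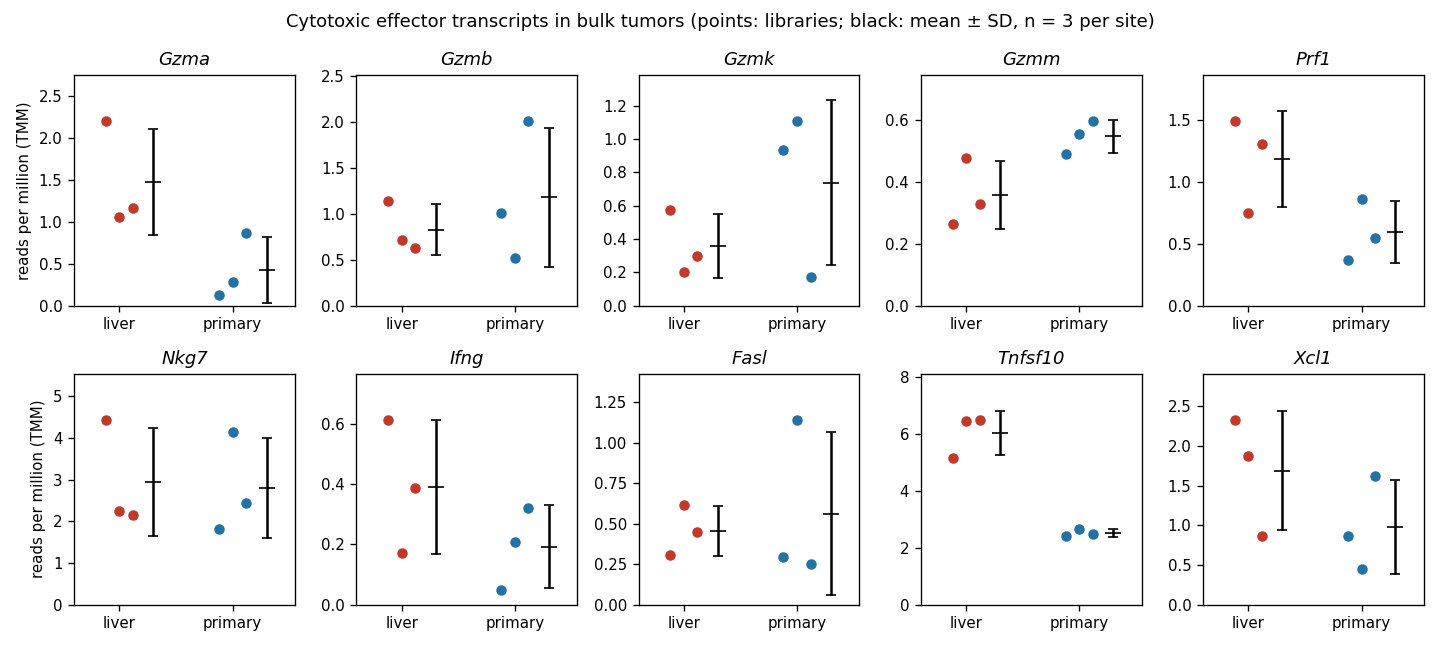
CPM (vertical axis, TMM-scaled, separate scale per gene) of the 10 effectors in the 3 liver (red) and 3 primary (blue) bulk tumors, with the mean and SD in black. Only Tnfsf10, Gzma and Gzmm have groups that do not overlap, Gzmm with the liver values below.

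Prf1, which forms the membrane pore, had 1.49, 0.75 and 1.31 CPM in liver tumors, against 0.37, 0.87 and 0.55 in primary tumors. The second liver tumor fell below the highest primary tumor, and the log2 change was 1.004 ± 0.46 (SE; edgeR adjusted p = 0.16). Nkg7, which is needed for granule release, had 4.44, 2.25 and 2.14 CPM in liver tumors, against 1.82, 4.15 and 2.43 in primary tumors. Each group had 1 high tumor, and the means differed by 0.07 ± 0.45 on the log2 scale (SE; edgeR adjusted p = 0.93), with a 95% interval of -0.96 to 1.10.

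Of the death ligands, Tnfsf10, which encodes TRAIL and is made by macrophages as well as lymphocytes, had 5.14, 6.45 and 6.48 CPM in liver tumors, against 2.41, 2.67 and 2.48 in primary tumors. The lowest liver tumor was well above the highest primary tumor. Its log2 change was 1.26 ± 0.28 (SE; edgeR adjusted p = 0.0147), and all 3 liver tumors were higher. The size hardly moved when single tumors were left out, but the call was lost without the second liver tumor (adjusted p = 0.078), without the third liver tumor (adjusted p = 0.056) and without the third primary tumor (adjusted p = 0.052). Fasl, which engages Fas, had 0.31, 0.61 and 0.45 CPM in liver tumors, against 0.29, 1.14 and 0.25 in primary tumors, and 1 primary tumor set the mean of its group. Its log2 change was -0.25 ± 0.65 (SE; edgeR adjusted p = 0.82).

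Of the secreted products, Ifng had 0.62, 0.17 and 0.39 CPM in liver tumors, against 0.0491, 0.208 and 0.323 in primary tumors, from 5 to 14 reads per liver tumor and 2 to 13 per primary tumor. The groups overlapped, and the log2 change was 0.98 ± 0.71 (SE; edgeR adjusted p = 0.35). It was 1.64 without the third primary tumor, 0.51 without the first primary tumor and 0.51 without the first liver tumor. Xcl1 had 2.33, 1.88 and 0.86 CPM in liver tumors, against 0.86, 0.45 and 1.61 in primary tumors, with a log2 change of 0.77 ± 0.56 (SE; edgeR adjusted p = 0.36). The third liver tumor was the lowest of its group and the third primary tumor the highest of its own, and the groups overlapped.

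**Figure D2:**
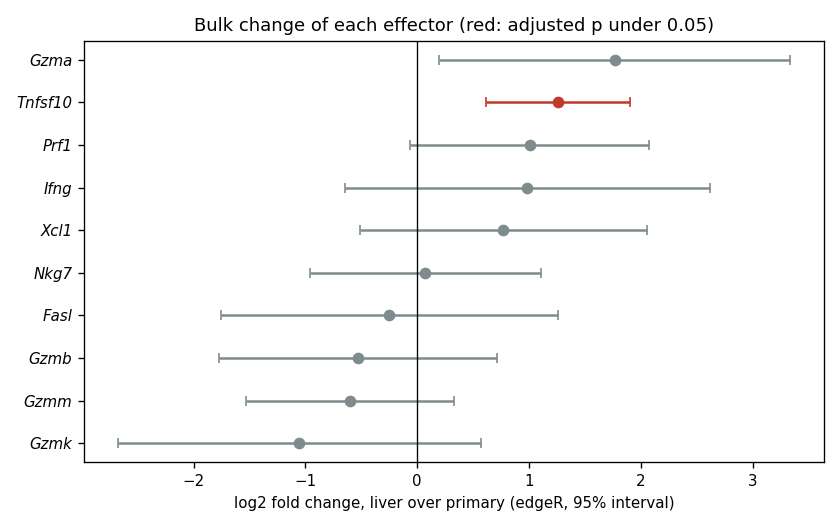
Log2 fold change of each effector in bulk tumors, liver over primary (horizontal axis), with 95% intervals from edgeR; red marks an adjusted p under 0.05. Only Tnfsf10, at 1.26, is red, and 8 of the 10 intervals reach across 0.

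Between genes, levels can be compared only per length, as the deposited FPKM (fragments per kilobase and library size) values allow. In liver tumors Xcl1 (3.26 ± 1.46 FPKM) and Nkg7 (3.23 ± 1.41 FPKM) stood highest, then Gzma (1.47 ± 0.62 FPKM) and Tnfsf10 (1.15 ± 0.15 FPKM), with the other 6 between 0.24 and 0.58 FPKM (SD, n = 3). In primary tumors Nkg7 (3.05 ± 1.34 FPKM) and Xcl1 (1.84 ± 1.09 FPKM) led, and Gzmb (0.81 ± 0.51 FPKM), Gzmk (0.53 ± 0.36 FPKM), Tnfsf10 (0.48 ± 0.029 FPKM) and Gzma (0.42 ± 0.38 FPKM) came next. Xcl1 and Nkg7 differed by less than the SD of either in liver tumors. In liver tumors Gzma and Tnfsf10 differed by less than the SD of Gzma but by more than that of Tnfsf10.

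The effectors were also set against leukocyte and T-cell transcripts. Ptprc, the CD45 gene, was 1.33 higher in liver tumors on the log2 scale, and the mean of the 3 CD3 chains Cd3d, Cd3e and Cd3g was 0.65 higher, with groups that overlapped. Relative to the CD3 chains, Gzma was higher in all 3 liver tumors, by 1.45 on the log2 scale (exact permutation test, two-sided p = 0.1, the smallest that 3 against 3 can give). After Benjamini-Hochberg adjustment over the 10 effectors this exact permutation p was 0.4. Against the full list of T-cell markers in place of the CD3 chains the difference was 1.36, and its groups overlapped (exact p = 0.2). Relative to Ptprc, Gzma was 0.78 higher with overlapping groups (exact permutation p = 0.4), and between 0.20 and 1.499 higher with single tumors left out. Relative to Ptprc, Tnfsf10 did not stand apart, with a log2 difference of -0.08 (exact permutation p = 0.3). Gzmm and Fasl were lower relative to Ptprc in all 3 liver tumors, by a log2 difference of -1.95 and -1.32. The exact permutation p was 0.1 for each, and 0.4 after Benjamini-Hochberg adjustment over the 10 effectors. Relative to the CD3 chains their groups overlapped (exact permutation p = 0.2 for Gzmm and 0.4 for Fasl). Ptprc itself was higher in every liver tumor (log2 CPM 5.39, 5.93 and 5.88) than in every primary tumor (4.27, 4.55 and 4.39). A gene that did not rise with Ptprc therefore tends to come out lower on this ratio. The share of all genes whose groups lay apart was not computed for this ratio or for the ratio to the CD3 chains. The separations of Gzma, Gzmm and Fasl on these ratios therefore have no background beside them.

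Markers of other cell types also differed between the sites in bulk. Of 14 monocyte or macrophage markers 9 were called higher and 1 lower in liver tumors, with summed levels of 7757 to 16191 CPM in liver tumors and 896 to 2030 in primary tumors. All 10 hepatocyte markers were higher, at 53232 to 107823 CPM in liver tumors and 114 to 478 in primary tumors. Of 12 NK markers 7 were testable and 3 were called higher (Klrk1, Klrd1 and Klrb1c), with sums of 34.0 to 53.2 in liver tumors and 25.8 to 42.4 in primary tumors, and the defining NK receptor gene Ncr1 had 23 reads in all liver tumors and 4 in all primary tumors. Of 12 T-cell markers 1 (Themis) was called, higher, with sums of 47.5 to 59.4 in liver tumors and 38.9 to 42.8 in primary tumors, and neither CD8 chain passed (Cd8a log2 change 0.16, Cd8b1 0.18). Of the other lists, 8 of 10 B-cell, 8 of 11 dendritic-cell, 6 of 10 fibroblast and 4 of 8 endothelial markers were called higher, and 3 of 13 epithelial tumor cell and 4 of 10 mast cell or basophil markers lower. The part of these cells in the bulk changes of Tnfsf10 and Gzma was not tested.

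Genes that surround the effectors in the pathway were read by the same test. Granule biogenesis and release genes numbered 11 tested of 12, of which Lyst, a regulator of lysosomal granules, was called higher (log2 change 0.97, edgeR adjusted p = 0.025), while Unc13d (-0.90, adjusted p = 0.034) and Rab27a (-0.87, adjusted p = 0.036), both needed to dock granules, were called lower. Of 5 granzyme inhibitors 1 was called, Serpinb6a, lower (log2 change -0.78, adjusted p = 0.028). Of 12 death receptor and signal genes 3 were higher and 1 lower. Fas, the receptor of Fas ligand, stood at 20.2 ± 3.7 CPM in liver tumors and 6.00 ± 0.68 in primary tumors (SD, n = 3), a log2 change of 1.75 (edgeR adjusted p = 0.0013). Tnfrsf11b, a secreted decoy that binds TRAIL, was higher (log2 change 2.69, adjusted p = 0.011), and Tnfrsf23, a mouse decoy receptor of TRAIL, was lower (-0.91, adjusted p = 0.038).

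Of 12 interferon gamma receptor and target genes 6 were called higher and 1 lower, although Ifng itself was not called. Iigp1, an interferon-induced GTPase, had a log2 change of 3.87 (edgeR adjusted p = 3.4e-05), Cxcl9, a chemokine for T cells, one of 1.69 (adjusted p = 0.0045) and Ciita, the switch for MHC class II genes, one of 2.11 (adjusted p = 0.0060). Of 8 other lymphocyte cytokine and chemokine genes 6 were tested and 2 were called higher. One was Xcr1, the receptor of the Xcl1 product on cross-presenting dendritic cells, at 7.63 ± 2.30 CPM in liver tumors and 1.69 ± 0.97 in primary tumors (SD, n = 3; log2 change 2.17, edgeR adjusted p = 0.012). Dendritic-cell markers summed to 122 to 150 CPM in liver tumors and 60.8 to 104 in primary tumors, and their part in the change of Xcr1 was not tested. The other was Ltb (log2 change 1.75, adjusted p = 0.0056). Of 8 transcription factors 1 was called, Nfatc2, lower (-1.17, adjusted p = 0.0069). Of the 6 other granzymes only Gzme had enough reads to be tested and was not called (log2 change -1.02, edgeR adjusted p = 0.18).

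The single-cell libraries held 161890665 UMIs in the liver library and 82083967 in the primary library. At least 1500 UMIs were found in 12505 liver barcodes and 7490 primary barcodes. Of these, 7618 liver barcodes and 2282 primary barcodes had at most 10% mitochondrial UMIs, so that a larger part of the primary barcodes was lost. A minimum of 200 genes and removal of doublets then left 7509 liver cells (median 6757 UMIs) and 2249 primary cells (median 12012 UMIs). Although CD45+ cells had been sorted, 3485 of the liver cells and 320 of the primary cells were epithelial tumor cell-like. Clustering, done without the 10 effectors, gave 158 T or NK-like liver cells, or 4.95% of leukocytes, and 119 T or NK-like primary cells, or 6.53%. The leukocytes counted, 3190 in the liver library and 1822 in the primary library, leave out 717 liver cells and 76 primary cells of unnamed clusters, which were led by Ccl24 and Mmp12 or by Gkn2 and Gkn1. Of the T or NK-like cells, 13 liver cells and 1 primary cell were NK-like and the rest T-cell-like. Their median depth was 5684.5 UMIs in liver cells and 10702 in primary cells. The libraries share 7 barcodes, and leaving these out changed none of the effector values.

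Among the cells that passed the filters, killer-lymphocyte classes held most of the effector UMIs. UMIs in other barcodes are not in these shares. T or NK-like cells carried 88.2% of the 4445 effector UMIs in liver cells (95% exact binomial interval 87.2 to 89.1) and 97.9% of 5743 in primary cells (97.5 to 98.3). For 8 effectors, between 87.0% and 95.4% of the UMIs were in these cells in the liver library and between 95.7% and 99.5% in the primary library. Tnfsf10 was spread more widely, with 28.6% in the liver library and 68.7% in the primary library. Gzmm, with 29 UMIs in liver cells and 13 in primary cells, had 2 and 4 of them in T or NK-like cells, too few for a level.

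**Figure D3:**
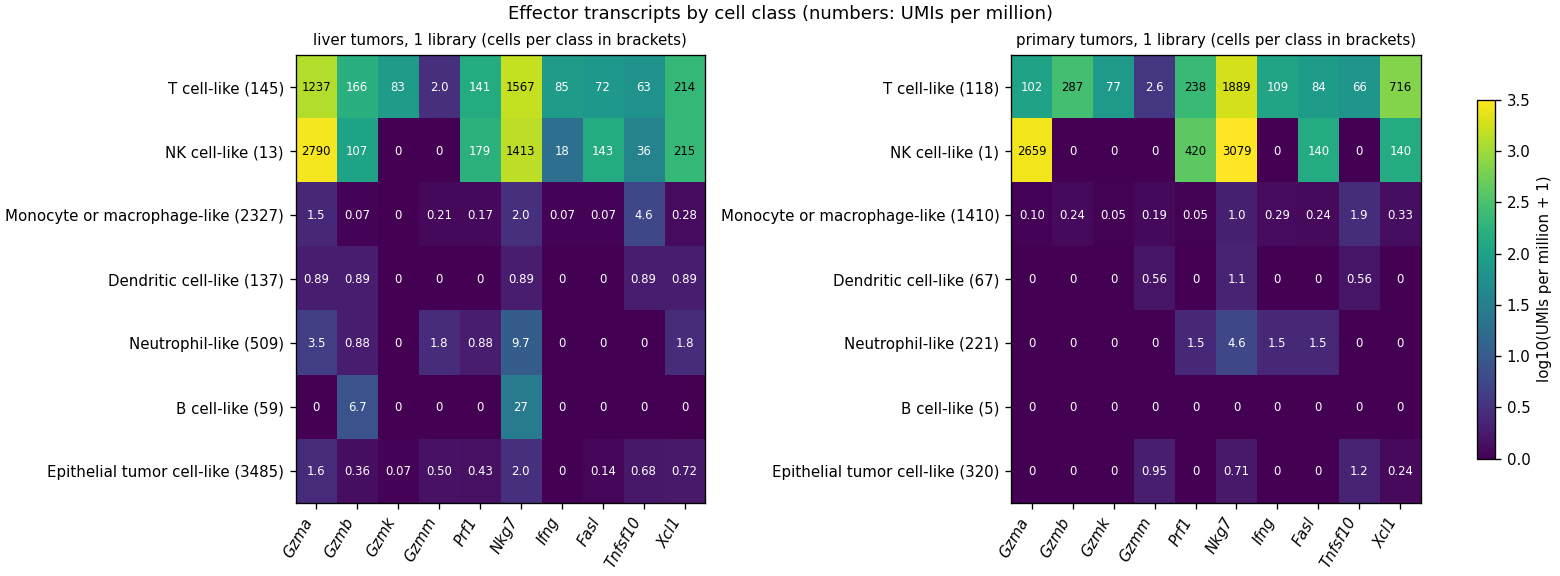
CPM of each effector (columns) in 7 cell classes (rows, number of cells in brackets) in the liver library (left) and the primary library (right), coloured on a log10 scale after adding 1. T-cell-like and NK-cell-like rows carry the signal, Gzma at 1237 in liver T-cell-like cells and 102 in primary ones, and the primary NK-like row rests on 1 cell.

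Among T or NK-like cells, effectors were called by size only, at 2-fold or more with at least 10 UMIs. Of 9 effectors with that many UMIs, 1 (Gzma) was past 2-fold higher in the liver library and 1 (Xcl1) past 2-fold lower. Of the 9936 genes with at least 10 UMIs there, 8.15% were past 2-fold higher and 6.09% lower. In cells gated as CD8 T cells (a UMI of Cd8a or Cd8b1 and of a T-cell receptor or CD3 gene; 104 liver cells and 106 primary cells), 7.21% of genes were past 2-fold higher and 7.21% lower, and the same 2 effectors were past it. All intervals below cover counting error only.

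Gzma had 1399 UMIs, or 1319 CPM, in the T or NK-like cells of the liver library and 178 UMIs, or 113 CPM, in those of the primary library, an 11.6-fold difference (log2 3.54, 95% interval 3.31 to 3.77). In CD8 T-gated cells the levels were 1430 CPM in liver cells and 108 in primary cells, with a UMI in 27 of 104 liver cells and 12 of 106 primary cells. After each T or NK-like cell was thinned to 1000 UMIs, 20.9% of 158 liver cells (95% interval 14.8 to 28.1) and 4.20% of 119 primary cells (1.38 to 9.53) had a Gzma UMI. Without thinning the shares were 25.3% in liver cells and 10.9% in primary cells. Epithelial tumor cell-like cells, which should lack the gene, had one in 0.43% of 3485 thinned liver cells and in 0 of 320 thinned primary cells. The upper 95% limit of that primary share was 1.15%.

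The Gzma signal came from few cells. In liver CD8 T-gated cells the 5 cells with most Gzma UMIs held 68.1% of them, and in primary ones 94.97%. The 5 T or NK-like cells of each library with most Gzma UMIs were then left out. In the liver library 553 UMIs remained and in the primary library 15 (log2 5.76), so that the direction stayed the same. These 5 were taken from 40 liver cells and 13 primary cells with a Gzma UMI, a deeper cut in the primary library. The larger difference therefore cannot be set against the main one. NK-like cells had Gzma at 2790 CPM over 13 liver cells, and the single primary NK-like cell had 19 UMIs.

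Xcl1, the highest of the secreted products, was past 2-fold lower in the liver library, at 227 UMIs, or 214 CPM, in liver T or NK-like cells and 1119 UMIs, or 713 CPM, in primary ones (log2 -1.74, 95% interval -1.95 to -1.53). The difference rested on a few primary cells: among CD8 T-gated cells, the 5 with most Xcl1 UMIs held 49.7% of them in liver cells and 76.1% in primary cells. Without the 5 T or NK-like cells of each library with most Xcl1 UMIs the log2 difference was -0.62, short of 2-fold. These 5 were taken from 47 liver cells and 27 primary cells with an Xcl1 UMI, a deeper cut in the primary library. With every cell given equal weight the log2 difference was -0.80, also short of 2-fold. In cells with at most 5% mitochondrial UMIs it was -2.90 (95% interval -3.30 to -2.52). The share of thinned cells with an Xcl1 UMI was 12.03% in liver T or NK-like cells and 12.6% in primary ones, with overlapping intervals, and 29.7% and 22.7% of the same cells without thinning. The bulk change of Xcl1, 0.77 ± 0.56 on the log2 scale (SE), was not called and had the opposite sign.

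Gzmb had 163 CPM in liver T or NK-like cells and 286 in primary ones (log2 -0.81, 95% interval -1.07 to -0.56), with a UMI in 8.86% of thinned liver cells and 15.1% of thinned primary cells, whose intervals overlapped, and in 23.4% of liver cells and 47.9% of primary cells without thinning. Prf1 had 143 CPM in liver cells and 238 in primary cells (log2 -0.73, interval -1.02 to -0.46), and Ifng 81.1 in liver cells and 109 in primary cells (log2 -0.43, interval -0.82 to -0.04). Without the 5 cells per library with most UMIs of a gene, Gzmb was at -0.46, Prf1 at -0.49 and Ifng at -0.26. The Ifng interval then reached across 0 (-0.84 to 0.31). The cells left out were picked by the gene's own UMIs, so these smaller differences cannot be set against the main ones. An Ifng UMI was found in 5.70% of thinned liver cells and 5.88% of thinned primary cells. Nkg7 was near its primary level, at 1559 CPM in liver cells and 1895 in primary cells (log2 -0.28, interval -0.37 to -0.19). Gzmk, Fasl and Tnfsf10 differed by 0.03, -0.16 and -0.10 on the log2 scale, with intervals that reached across 0. With each cell weighted equally, Gzmk was at -0.82 and Tnfsf10 at 0.30, so that both changed sign, and a Gzmk UMI was found in 23.4% of liver cells and 46.2% of primary cells without thinning. At the main settings all of these differences in level stayed under 2-fold. In T or NK-like cells with at most 5% mitochondrial UMIs Gzmb was past it. It stood there at 188 CPM in liver cells and 459 in primary cells (log2 -1.29, 95% interval -1.62 to -0.96).

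**Figure D4:**
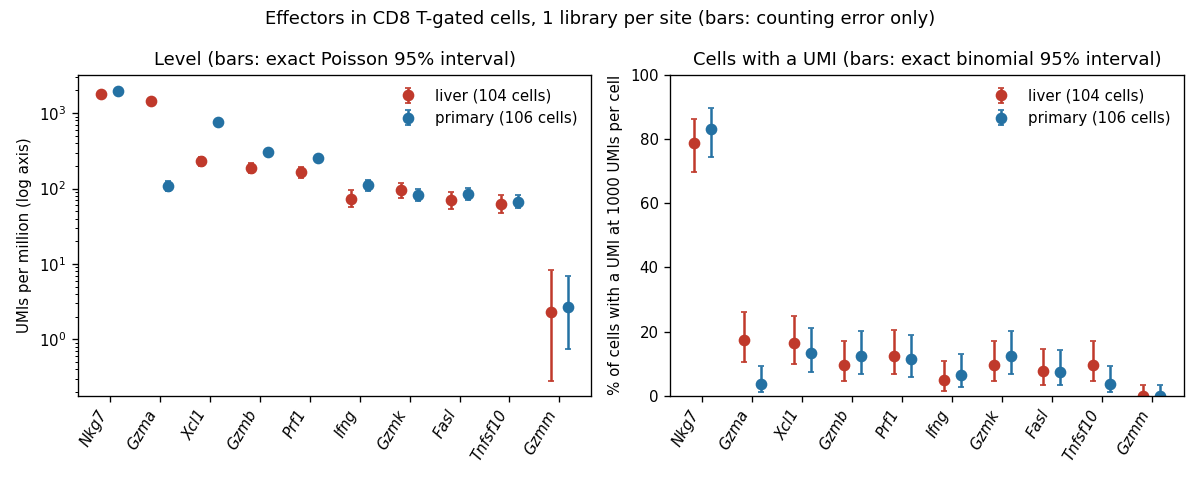
CPM (left, log axis) and percent of cells with a UMI after thinning to 1000 UMIs (right) for each effector in CD8 T-gated cells, 104 liver cells (red) and 106 primary cells (blue), 1 library each, with 95% counting intervals. Gzma is higher in liver cells in both panels (17.3% of thinned cells against 3.77%), whereas Xcl1 is lower in level only, with 16.3% of thinned liver cells and 13.2% of thinned primary cells.

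The T or NK-like cells of each site fell largely into different clusters. Cluster 11.0, led by Gzma, Cxcr6 and Trbc1, held 65 liver cells and 0 primary cells, and 11.2, with Tcf7 and Lef1 among its leading genes, 31 liver cells and 3 primary cells. Cluster 11.1, led by Gm156 and Cxcr6, held 1 liver cell and 44 primary cells, and 11.3, led by Ctla4 and Il2rb, 1 liver cell and 28 primary cells. With 1 library per site, such clusters may be the library and not a cell state. Of the 3 clusters with at least 10 cells from each site, cluster 11.5 had 1 Gzma UMI in liver cells and 0 in primary cells, and in the other two Gzma was also higher in liver cells. It stood at 1845 CPM in 20 liver cells and 121 in 14 primary cells of the cycling T cluster 23 (Mki67, Top2a). In cluster 11.4, led by Ccl1 and Nkg7, it was at 853 in 12 liver cells and 283 in 15 primary cells. Xcl1 was lower in liver cells of both, at 268 and 494 CPM in the liver cells of cluster 23 and cluster 11.4, against 1529 and 1258 in the primary cells of the same clusters. These levels rested on single cells: in cluster 23, 1 cell held 338 of the 440 Gzma UMIs of liver cells and 1 cell held 48 of the 50 of primary cells. In cluster 11.4, 1 cell held 52 of 114 Gzma UMIs of liver cells and 1 cell 71 of 80 of primary cells, and 1 primary cell of cluster 23 held 313 of its 631 Xcl1 UMIs.

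Cluster 11.5, with Tnfrsf4 and Ikzf2 among its leading genes, had the highest Ifng level in the liver library, at 505 CPM over 13 liver cells and 202 over 10 primary cells. The liver level came from 32 UMIs in 4 cells, 16 of them in 1 cell. The primary level came from 27 UMIs in 4 cells, 19 of them in 1 cell. In liver CD4 T-gated cells (20 cells) Ifng stood at 292 CPM from 21 UMIs in 3 cells, 16 of which came from 1 cell. In the 7 primary CD4 T-gated cells it stood at 133 CPM from 9 UMIs.

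**Figure D5:**
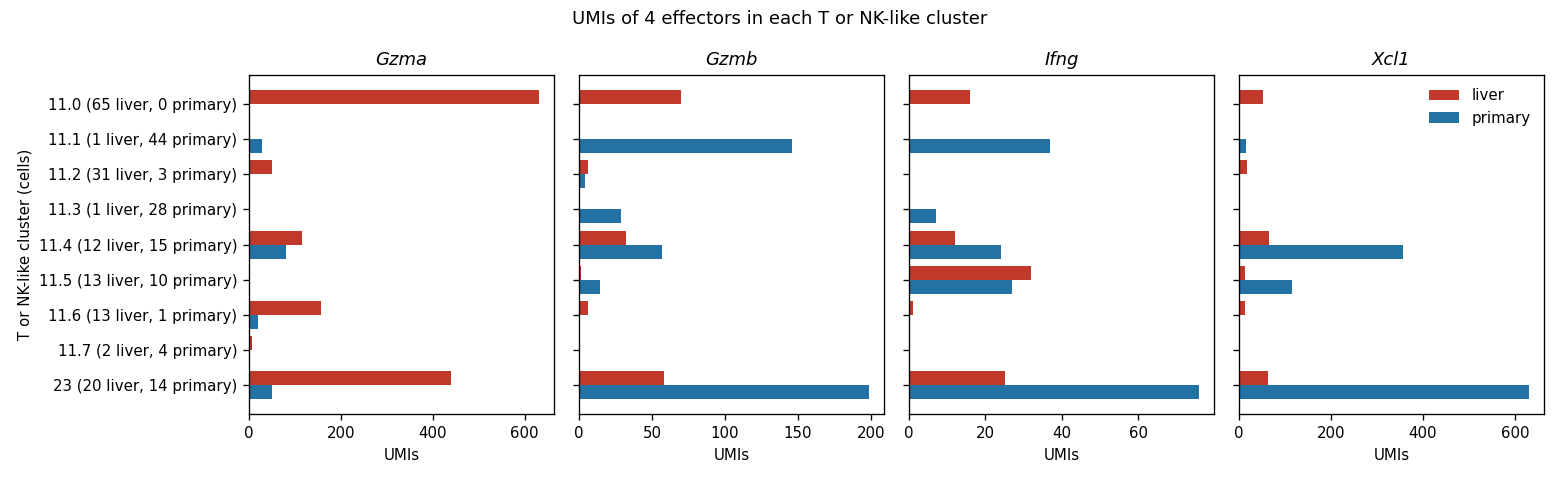
UMIs (horizontal axis) of Gzma, Gzmb, Ifng and Xcl1 in each T or NK-like cluster (rows, with its number of cells) in the liver library (red) and the primary library (blue). Gzma UMIs lie mostly in liver cells of cluster 11.0 (632) and cluster 23 (440), and Xcl1 UMIs mostly in primary cells of cluster 23 (631) and cluster 11.4 (356).

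Tnfsf10, the member called in bulk, was close to level between the sites in T or NK-like cells, at 61.3 CPM in liver cells and 65.6 in primary cells. In monocyte or macrophage-like cells it was at 4.64 CPM from 134 UMIs in the liver library and at 1.86 from 39 UMIs in the primary library (log2 1.32, 95% interval 0.79 to 1.87). In the liver library 70 of those 134 UMIs were in cluster 13, 177 cells led by interferon-stimulated genes (Ifit3, Ifit2 and Ifit1), at 33.6 CPM, and 5 primary cells fell into that cluster, with 0 UMIs. Its share of the bulk difference was not tested.

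Among the surrounding genes in CD8 T-gated cells, Gzmc and Gzmf, granzymes next to Gzmb in the same cluster of paralogs, had 0 UMIs in liver cells and 63 and 46 in primary cells. Set at the floor of 3 UMIs in liver cells, the log2 differences were at or below -3.63 for Gzmc and -3.18 for Gzmf. Of 5 granzyme inhibitors 1 was past 2-fold higher in liver cells (Serpinb1a) and 3 lower, among them Serpinb9, an inhibitor of granzyme B, at 44.9 CPM in liver cells and 139 in primary cells. Of 12 granule genes 2 were past 2-fold lower, Rab27a (33.4 CPM in liver cells and 83.5 in primary cells) and Stx11 (9.21 in liver cells and 32.6 in primary cells), and 0 higher. Of 8 transcription factors Tbx21 (25.3 CPM in liver cells and 53.7 in primary cells) and Prdm1 (21.9 in liver cells and 62.5 in primary cells) were past 2-fold lower. Of the cytokine and chemokine genes Lta was past 2-fold higher (6 UMIs in liver cells and 4 in primary cells) and Tnf and Ccl4 lower. Ccl4, a chemokine of activated T cells, was at 721 CPM in liver cells and 1569 in primary cells, and Ccl5, another, at 4605 in liver cells and 4118 in primary cells. Of the interferon gamma receptor and target genes Ifngr2 (13.8 CPM in liver cells and 2.72 in primary cells) and Gbp2 (40.3 in liver cells and 10.2 in primary cells) were past 2-fold higher. Of the death receptor genes 1 was past 2-fold higher, Tnfrsf1a (53.0 CPM in liver cells and 25.1 in primary cells), and 0 lower. Of the NK receptor genes called higher in bulk, Klrd1 was at 313 CPM in liver CD8 T-gated cells and 846 in primary ones. Klrk1 was at 63.3 CPM in liver cells and 128 in primary cells, so that both were opposite in direction to their bulk calls. Klrb1c went the same way as its call, at 10.4 CPM from 9 UMIs in liver cells and 2.72 from 4 UMIs in primary cells. The bulk calls cover whole tumors and not only CD8 T cells.

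Gzma UMIs were also found in barcodes under the minimum for a cell. Barcodes with at least 500 and fewer than 1000 UMIs held 31.3% of all 2642 Gzma UMIs of the liver library. In the primary library they held 1.02% of all 293. Such barcodes carried Gzma at 17.7 CPM in the liver library and 0.334 in the primary library, there from 3 UMIs. Barcodes with fewer than 100 UMIs carried it at 20.3 CPM in the liver library and 5.46 in the primary library, and those with at least 1000 and fewer than 1500 UMIs at 13.6 in the liver library and 1.56 in the primary library. Of 70083 liver barcodes with at least 500 and fewer than 1500 UMIs, 875 had 1 Gzma UMI, 12 had 2 and 1 had 3 or more. Nkg7 had 904 UMIs in the same liver barcodes. These levels lie far under those of T or NK-like cells.

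Over the 34 clusters, with both libraries summed, the genes whose levels ran closest to a member were described by Pearson's correlation of log2(CPM + 1) among 13464 genes with at least 50 UMIs. The points share libraries and depth, and no test is attached. Gzma was closest to Sh2d1a (0.85) and Ctsw (0.84), Gzmb to Cd160 (0.98) and Gpr174 (0.96), and Gzmk to Gm156 (0.92) and Tcrg-C2 (0.90). Prf1 was closest to Sh2d1a (0.97) and Fasl (0.97), Nkg7 to Cd96 (0.97) and Sh2d2a (0.97), and Ifng to Prf1 (0.91) and Vipr2 (0.91). Fasl was closest to Sh2d1a (0.99) and Klrc2 (0.99), Tnfsf10 to Ms4a4b (0.89) and Sh2d1a (0.88), and Xcl1 to Cd160 (0.93) and Gzmb (0.90). Gzma and Gzmk, neighbours in the genome, did not appear in each other's closest pair.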

How the data were processed

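The bulk count table holds the authors' deposited whole-number read counts per gene, and a second table holds the authors' deposited FPKM values. The aligner and counting program are not given in the sources used here; mm10, bcl2fastq and Cell Ranger are named per the submitters' processing notes, and Cell Ranger 3.0.0 per the file headers of the UMI count matrices. Bulk counts were tested with edgeR 4.0.16 (R 4.3.3; filterByExpr, TMM, robust quasi-likelihood fit, two-sided, Benjamini-Hochberg over all genes tested), with limma 3.58.1 and DESeq2 1.42.0 as alternatives. Log2 ratios to CD3 and Ptprc added 0.5 reads. Cells were clustered with scanpy 1.11.5 (2000 variable genes without the members, 30 components, 15 neighbours, Leiden resolution 1), and T and NK clusters were clustered again. Clusters were named from at least 3 markers. Scrublet's automatic threshold marked 1 of 7618 liver barcodes, so a score above 0.25, set after the data were seen, removed 109 liver and 28 primary barcodes. CPM of cells are summed UMIs with exact Poisson or binomial intervals. The edgeR fit was tested on simulated data. The members, gene lists and tests were chosen with earlier results of these data known. Named genes were all members, up to 3 called genes per list by p-value, defining markers and the 2 closest genes per member; other genes named in single cells, and leading cluster genes, were chosen after their values were seen. Counts of Gzmb and its paralogs Gzmc to Gzmg, and of near-identical genes in general, are uncertain where shared reads were split. A gene of the interferon gamma receptor and target list is not reported here in single cells.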

Additional observations from a re-analysis of the deposited data

How the results depend on the processing

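The 1 effector called higher in bulk (Tnfsf10) became 2 with DESeq2, log2(FPKM + 1) and log2(FPKM + 0.1), each of which added Gzma, and ranged from 0 to 1 when single tumors were left out; without the third primary tumor the 1 was Gzma. None was called lower under any alternative. With a mean of at least 5 CPM no effector was left to test. Leaving out single tumors gave log2 changes of -0.88 to 0.090 for Gzmb, -0.36 to 0.46 for Nkg7 and -0.61 to 0.76 for Fasl, and, with no change of sign, 1.32 to 2.89 for Gzma, -1.54 to -0.66 for Gzmk, -0.86 to -0.46 for Gzmm, 0.75 to 1.36 for Prf1, 0.51 to 1.64 for Ifng, 1.19 to 1.34 for Tnfsf10 and 0.44 to 1.34 for Xcl1. The alternative limma-voom gave 0.071 for Fasl, and the cause of these changes of sign was not tested. Same-numbered tumors did not pair (correlations of deviations -0.17, 0.24 and 0.09); with the replicate block 1 effector was called higher and 0 lower, and 2703 genes in all higher and 873 lower, against 2755 and 1032 without it. In single cells, past 2-fold lower counted 0 with each cell weighted equally and 2 (Gzmb and Xcl1) at 5% mitochondrial UMIs. The share of effector UMIs in T or NK-like cells was 79.7% in the liver library and 96.3% in the primary library for CD8 T-gated cells only, 90.1% in the liver library at 5% mitochondrial UMIs, 85.5% in the liver library and 97.4% in the primary library at 20%, and 86.5% and 66.3% in the liver library at minimums of 1000 and 500 UMIs. The planned marker gate (a T or NK receptor UMI and none of C1qa, C1qb, Lyz2, Krt8 and Krt18) kept 0 of 669 liver cells with a receptor UMI and 27 of 267 such primary cells, so it gave no comparison. Equal weights, CD8 T-gated cells, shared barcodes, members among the variable genes and leaving out 5 cells were alternatives chosen after seeing the data. Few bulk reads per effector and 1 single-cell library per site limit these results.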
